A study of Mus musculus with 28 samples.

Results

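Heat shock proteins and their co-chaperones were described as 77 of the 24391 gene symbols in the count table. They were taken by symbol, as all names of the forms Dnaja, Dnajb, Dnajc, Hspa, Hspb, Hspd, Hspe, Hsph, Hsp90 and Bag followed by a number, leaving out Hspa5. The 77 are 3 Hsp90, 10 Hsp70, 3 Hsp110, 2 chaperonin, 8 small heat shock protein, 4 Dnaja, 13 Dnajb, 28 Dnajc and 6 Bag genes. RNA came from the motor cortex of 14 mice, all of the genotype Cx3CR1-Cre/TRAPfl, so that home cage controls carried the same alleles as mice that exercised. Of these, 7 stayed in the home cage and 7 spent 1 h on a rotarod, a rotating rod that a mouse has to walk on. Each mouse gave 1 library of total lysate and 1 of TRAP (translating ribosome affinity purification, in which tagged ribosomes are pulled down with the mRNA they carry), which makes 4 groups of 7 libraries. Cohort 1 held 4 mice per condition and cohort 2 held 3, and the labels give the cohorts as batches. By the titles both sexes were present in each condition and cohort, and no statistical model included sex. Cx3CR1-Cre acts in microglia and also in other cells that express Cx3cr1, such as border-associated macrophages, and the labels give neither the age of the mice nor whether the Cre was induced.

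Heat shock proteins keep other proteins folded. Hsp70 binds unfolded stretches and releases them as it turns over ATP, J-domain proteins (the Dnaj genes) bring it clients and start that turnover, and Hsp110 and Bag proteins make it let go. Hsp90 finishes the folding of kinases and receptors, the chaperonin of Hspd1 and Hspe1 works in mitochondria, and small heat shock proteins hold aggregating proteins. When a cell is stressed, heat shock factor 1 (Hsf1) binds repeats of the 3 bases GAA in alternating orientation and raises transcription of a subset of these genes.

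Total counts per library ran from 70090518 to 241381845. The labels name microglia as the cell type of all libraries, lysate included, while the summed level of 10 neuron markers was 8357 to 17170 CPM (counts relative to the library's total, scaled with TMM over all libraries) in lysate and that of 14 microglia markers 467 to 628. In TRAP the microglia sum was 24140 to 66760 CPM and the neuron sum 2032 to 8545, so mRNA of neurons was still present in TRAP. All 7 border-associated macrophage markers and 8 of 8 endothelial markers were also higher in TRAP, with median log2 ratios of 6.23 and 1.93. Both libraries of 2 run mice of cohort 2 (Male1 and Female2) go against their labels in Y-linked genes, and results are given with and without them. By their titles the replicates of a group are separate mice, and both fractions of a mouse carry the same name. Markers of oligodendrocytes (8 of 8), astrocytes (8 of 8) and neurons (10 of 10) were lower in TRAP, and those of mural cells were mixed (4 higher and 1 lower of 8). Of 5 blood markers, 4 were at 0 in all libraries and 1 was lower in TRAP.

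Promoters were searched for the sequence that Hsf1 recognises, and the windows of 6 stress-inducible members are shown because the run comparison asks about mRNA made from them. Sequences are from RefSeq on GRCm38.p6, read 5′ to 3′ on the strand of the gene, and capitals mark each match to GAANNTTC or TTCNNGAA, the paired form of the GAA repeat. Hspd1 and Hspe1 are transcribed away from each other. Between the start of Hspe1 and 1 of the annotated starts of Hspd1 lie 215 bases at chr1:55087933-55088147, shown on the plus strand.
Hspe1 and Hspd1: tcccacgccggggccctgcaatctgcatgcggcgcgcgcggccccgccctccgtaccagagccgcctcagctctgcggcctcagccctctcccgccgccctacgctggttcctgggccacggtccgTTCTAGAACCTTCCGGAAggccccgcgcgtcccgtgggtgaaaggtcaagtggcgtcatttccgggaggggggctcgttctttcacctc
The windows of Hspb1 (chr5:135887719-135887918, plus strand), Hsph1 (chr5:149636316-149636515, minus strand), Hspa1b (chr17:34959239-34959438, minus strand) and Hspa1a (chr17:34972157-34972356, minus strand) hold 200 bases each.
Hspb1: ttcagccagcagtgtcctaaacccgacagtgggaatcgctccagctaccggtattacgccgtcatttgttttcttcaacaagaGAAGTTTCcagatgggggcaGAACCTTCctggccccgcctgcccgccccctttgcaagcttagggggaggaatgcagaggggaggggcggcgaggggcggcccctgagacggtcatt
Hsph1: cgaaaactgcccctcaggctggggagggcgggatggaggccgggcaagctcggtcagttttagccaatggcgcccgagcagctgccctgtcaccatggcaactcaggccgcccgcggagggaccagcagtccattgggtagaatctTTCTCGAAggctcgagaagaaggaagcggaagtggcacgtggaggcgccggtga
Hspa1b: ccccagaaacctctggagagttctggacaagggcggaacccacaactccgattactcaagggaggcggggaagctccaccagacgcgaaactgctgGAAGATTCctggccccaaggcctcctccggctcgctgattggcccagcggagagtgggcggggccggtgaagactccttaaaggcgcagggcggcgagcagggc
Hspa1a: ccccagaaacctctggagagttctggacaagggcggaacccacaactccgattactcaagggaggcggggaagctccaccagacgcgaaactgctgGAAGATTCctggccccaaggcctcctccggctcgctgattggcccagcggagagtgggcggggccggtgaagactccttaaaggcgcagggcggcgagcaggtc
The windows of Hspa1a and Hspa1b, neighbours on chromosome 17, matched at 199 of 200 bases. Within 250 bases before the start, a pair was found in 8 of the 11 stress-inducible members with a promoter in the table (72.73%). It was found in 6 of 51 other members (11.76%) and in 14.55% of the promoters of 27025 genes. The list was chosen as stress-inducible genes, so its share is no independent result. Bag3, Dnajb1 and Hspa4l held no pair, and only windows with a pair are shown. Among the 8, Hspd1 and Hspe1 count the same stretch, and Hspa1a and Hspa1b count near-identical windows. Dnaja1, Dnajb4 and Hspd1 had a pair at only 1 of their annotated starts. The longer form with 3 repeats (GAANNTTCNNGAA or TTCNNGAANNTTC, which includes pairs) was found in 0.514% of all promoters and in 3 members, Hspd1 and Hspe1 (the same stretch) and Dnajb6. Both strands were searched; a match is a match of letters and no measured binding. The 15 members that the promoter table does not hold were not searched.

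TRAP and lysate were compared first, which asks how the share of each chaperone mRNA in the TRAP library compares with its share in the lysate library. Of 73 members that passed the filter on low counts, 56 were called (edgeR quasi-likelihood test, Benjamini-Hochberg adjusted p under 0.05), where 75.6% of all 16716 genes tested were called. Higher in TRAP were 22 members, where 34.3% of all genes were, and lower were 34, where 41.3% of all genes were, so that the members' shares of 30.1% and 46.6% lay near those of all genes. The median log2 ratio was -0.22 over members and -0.20 over all genes tested. The 4 members that did not pass were Dnajb7, Dnajb8, Dnajc22 and Dnajc5g. Dnajb7 and Dnajb8 were at 0 counts in every TRAP library, and Dnajc5g was at 0 in all 28 libraries. A count of 0 allows up to 3 counts, which is 0.013 to 0.0378 CPM by library, counting error only.

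**Figure D1:**
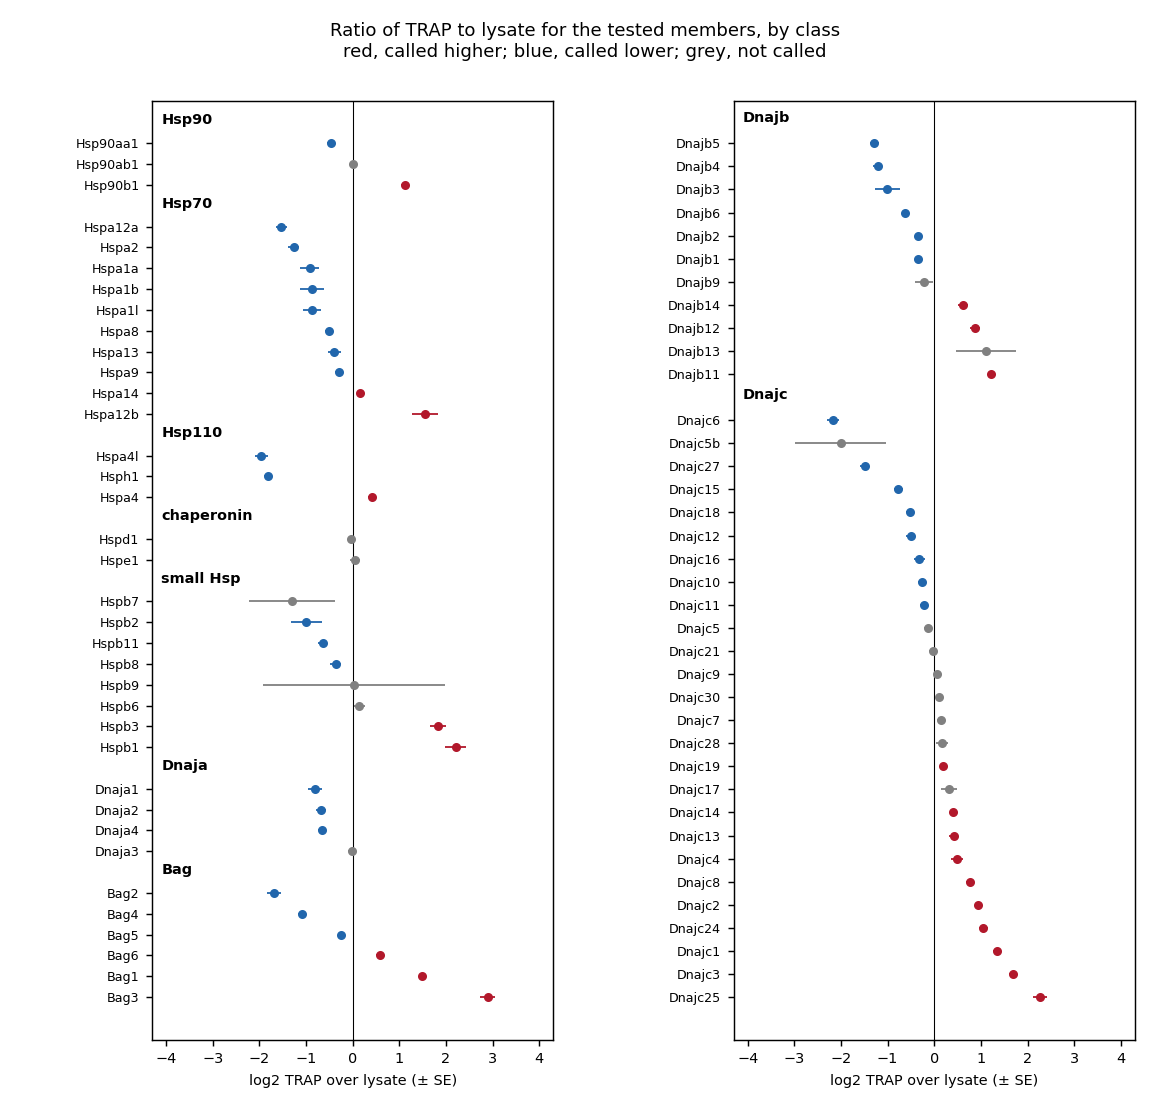
Log2 ratio of TRAP to lysate with its standard error for the 73 tested members, grouped by class and ordered within it. The Hsp110, Hsp70, Bag and Dnajc classes spread to both sides of 0, Bag3 sits highest at 2.90 and Dnajc6 is the lowest called member at -2.18.

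The 3 Hsp90 genes had 3 different outcomes. Positions are given on GRCm38 with the gene limits of GENCODE vM21. Hsp90ab1, the constitutive cytosolic Hsp90 (chromosome 17, 45567775 to 45573271, minus strand), had a lowest, median and highest level of 737, 992 and 1502 CPM in TRAP and 822, 999 and 1320 CPM in lysate. Its log2 ratio was 0.01 ± 0.06 (SE, n = 14 mice) with an edgeR adjusted p of 0.870, and TRAP was above the mouse's own lysate in 7 of 14 mice. Hsp90aa1, the inducible cytosolic form, ran from 174 to 706 CPM (median 435) in TRAP and from 255 to 852 CPM (median 659) in lysate, and was lower in TRAP in all 14 mice (log2 ratio -0.47 ± 0.08, adjusted p = 5.03e-06). Hsp90b1, the form of the endoplasmic reticulum (ER), ran from 317 to 842 CPM (median 655) in TRAP against 152 to 470 CPM (median 353) in lysate. It was higher in TRAP in all 14 mice, by 1.12 ± 0.09 on the log2 scale, and its fractions did not overlap within either cohort. Of the transcript of Hsp90aa1, 58.5% of 50-base stretches also occur in 4 other annotated genes, so its counts depend on how reads with several places were treated.

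Among Hsp70 and Hsp110 genes the 10 called lower outnumbered the 3 called higher, where 41.3% of all genes tested were lower and 34.3% higher. Hspa8, the constitutive cytosolic Hsp70 (chromosome 9, 40800984 to 40810087, plus strand), had 430, 569 and 784 CPM as its lowest, median and highest TRAP level and 650, 813 and 1135 CPM in lysate. It was below the mouse's own lysate in 14 of 14 mice, with a log2 ratio of -0.52 ± 0.07, and the ranges of the fractions overlap. The Hsp110 class, exchange factors of Hsp70, held the lowest ratios here. Hsph1 (chromosome 5, 149614287 to 149636376, minus strand) was at 48.8 to 141 CPM (median 89.4) in TRAP and 217 to 396 CPM (median 277) in lysate, with no overlap, and its log2 ratio was -1.81 ± 0.08 (adjusted p = 8.96e-19). Hspa4l, a paralog of Hspa4, was lower without overlap too, at 8.92 to 49.0 CPM (median 18.7) in TRAP and 52.7 to 125 CPM (median 102) in lysate, with a log2 ratio of -1.96 ± 0.15. Hspa4, the third gene of that class, was higher in TRAP by 0.42 ± 0.08, in 12 of 14 mice.

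The stress-induced pair Hspa1a and Hspa1b was scarce in both fractions. Hspa1a was at 0.905, 3.32 and 6.19 CPM (lowest, median, highest) in TRAP and 3.66, 5.42 and 7.18 CPM in lysate, lower in TRAP in all 14 mice (-0.92 ± 0.20). Hspa1b was at 0.200, 3.65 and 17.8 CPM in TRAP and 2.91, 6.71 and 15.6 CPM in lysate, lower in TRAP in 11 of 14 mice (-0.87 ± 0.25). Within cohorts, the log2 ratio of Hspa1b was -1.61 in cohort 2 (adjusted p = 0.00129) and -0.20 in cohort 1 (adjusted p = 0.589), and the test of that difference gave an adjusted p of 0.0532. Of the 50-base stretches of Hspa1b, 62.3% occur also in Hspa1a, and 71.4% of those of the neighbouring Hspa1l lie in an antisense gene, so the levels of these 3 genes are uncertain. The remaining Hsp70 genes spread widely. Hspa12a was at 16.6 to 89.1 CPM (median 38.9) in TRAP and 81.9 to 121 CPM (median 105) in lysate, a log2 ratio of -1.53 ± 0.12. Hspa12b, known from endothelial cells, was at 0.536 to 8.29 CPM (median 2.80) in TRAP and 0.147 to 2.88 CPM (median 1.04) in lysate, higher in TRAP in 14 of 14 mice (1.54 ± 0.28). The 8 endothelial markers summed to 69.1 to 440 CPM in TRAP and 23.5 to 79.9 CPM in lysate, and their part in the ratio of Hspa12b was not tested. In bulk libraries, fewer cells of a type and less of an mRNA in each cell cannot be told apart.

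Members of the ER list formed the group furthest to the TRAP side. Of 7, 4 were called higher, 2 lower and 1 not, where 34.3% of all genes tested were higher and 41.3% lower. The median log2 ratio of the 7 was 1.12. Besides Hsp90b1, those called higher were 3 J-domain proteins of the ER. Dnajc3 (chromosome 14, 118937976 to 118981697, plus strand) was at 98.3, 126 and 147 CPM (lowest, median, highest) in TRAP and 32.1, 39.0 and 56.0 CPM in lysate (1.68 ± 0.07), Dnajb11 at 111, 126 and 138 CPM against 46.1, 53.1 and 81.0 CPM (1.21 ± 0.07), and Dnajc1 at 28.1, 33.6 and 44.9 CPM against 9.64, 14.4 and 21.9 CPM (1.35 ± 0.09). All 3 had TRAP ranges wholly above lysate. Hspa13 and the disulfide-reducing Dnajc10 went the other way, at -0.39 ± 0.14 and -0.26 ± 0.08, and neither was called without the 2 run mice above (Hspa13 -0.26, adjusted p = 0.0653). Dnajb9, which binds Hspa5 in the ER, was not called (-0.22 ± 0.19).

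Mitochondrial members stood near 0. Of 8, 1 was called higher (Dnajc19, 0.18 ± 0.07), 3 lower and 4 not, with a median of -0.03. Of all genes tested, 34.3% were higher and 41.3% lower. Dnajc19 was not called without the 2 run mice (adjusted p = 0.127), with DESeq2-type size factors, with a stricter filter, in cohort 1 alone or without a cohort term. The chaperonin genes were both without a call, Hspd1 at -0.03 ± 0.07 and Hspe1 at 0.05 ± 0.10, and their levels overlap between the fractions (Hspe1 53.6 to 288 CPM in TRAP and 36.6 to 318 CPM in lysate). Hspa9, the mitochondrial Hsp70, was lower by -0.30 ± 0.08. Dnajc15, which sits at the import channel, was at 44.9 to 179 CPM (median 115) in TRAP and 55.9 to 516 CPM (median 276) in lysate (-0.78 ± 0.10).

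Among the other J-domain proteins, Dnajc6 (auxilin, on chromosome 4, 101496648 to 101642799, plus strand) was the lowest called member. Dnajc6 recruits Hspa8 to strip clathrin from vesicles at synapses. Its lowest, median and highest levels were 7.42, 45.4 and 115 CPM in TRAP and 82.7, 163 and 207 CPM in lysate, and the log2 ratio was -2.18 ± 0.13 (adjusted p = 3.70e-15). It was lower in TRAP in 14 of 14 mice, and within each cohort the fractions did not overlap. In the Dnaja class 3 of 4 genes were lower (Dnaja1 -0.81 ± 0.14, Dnaja2 -0.68 ± 0.10, Dnaja4 -0.67 ± 0.08), where 41.3% of all genes tested were. Dnaja3, which is counted among the mitochondrial members above, was not called (-0.02 ± 0.07). Of the stress-inducible Dnajb genes, Dnajb1 was at 70.0 to 114 CPM in TRAP and 99.1 to 151 CPM in lysate (-0.34 ± 0.07), and Dnajb4 at 9.97 to 85.1 CPM against 31.2 to 169 CPM (-1.22 ± 0.10). Both were lower in every mouse. Dnajb5 (-1.29 ± 0.09) and Dnajc27 (-1.49 ± 0.09) were lower without overlap within either cohort. On the other side, Dnajc25 was at 9.38 to 25.1 CPM in TRAP against 1.96 to 5.18 CPM in lysate (2.26 ± 0.15), Dnajc24, which takes part in making diphthamide, was higher by 1.05 ± 0.09, Dnajc2, which binds ribosomes, by 0.94 ± 0.08, and Dnajc8, which takes part in splicing, by 0.76 ± 0.07. Of Dnaja4, 51.9% of 50-base stretches lie in Wdr61 on the opposite strand, and no strand setting is given in the sources used here.

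Small heat shock proteins and Bag proteins split as well. Hspb1 was at 1.89, 5.83 and 23.6 CPM (lowest, median, highest) in TRAP and 0.435, 1.02 and 3.33 CPM in lysate, higher in TRAP in 14 of 14 mice (2.21 ± 0.22, adjusted p = 4.15e-10), with the caution that 51.6% of its stretches occur in the pseudogene Hsp25-ps1. Hspb3 was at 4.29 to 25.3 CPM in TRAP and 2.71 to 5.30 CPM in lysate (1.83 ± 0.17). Hspb8, the partner of Bag3 in clearing aggregates, was lower by -0.36 ± 0.12 and was not called without the 2 run mice (adjusted p = 0.075) or in either cohort alone. Hspb2 and Hspb11, the latter placed in this class by its symbol alone, were lower too (-0.996 and -0.65). Hspb7, scarce at 0 to 0.531 CPM in TRAP and 0.0126 to 0.697 CPM in lysate, was not called (-1.30 ± 0.93). Bag3 (chromosome 7, 128523616 to 128546981, plus strand) had the highest ratio of all members: 16.5, 26.2 and 45.03 CPM in TRAP and 1.65, 3.90 and 5.59 CPM in lysate, a log2 ratio of 2.90 ± 0.16 or 7.46-fold (adjusted p = 3.94e-16). The lowest TRAP library thus stood above the highest lysate library. Bag1, at 463 to 831 CPM in TRAP and 175 to 329 CPM in lysate (1.49 ± 0.07), and Bag6 (0.58 ± 0.08) were higher too. Bag2, which holds back the ubiquitin ligase Stub1, was at 2.90 to 10.0 CPM in TRAP and 17.2 to 29.1 CPM in lysate (-1.68 ± 0.15), and Bag4 and Bag5 were lower by -1.09 and -0.25.

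By role, the 14 stress-inducible members held 2 that were higher in TRAP (Bag3 and Hspb1), 9 lower and 3 not called. Of all genes tested, 34.3% were higher and 41.3% lower. The median of the 14 was -0.50, and the list includes Hsp90ab1 and Hspa8, named constitutive above. The 4 clathrin and synaptic vesicle members held 1 higher (Dnajc13, an endosomal protein, 0.41 ± 0.09) and 2 lower (Dnajc6 and Hspa8). Members with TRAP above the mouse's own lysate in all 14 mice numbered 14, and those below it in all 14 numbered 21, where this held for 22.0% and 19.3% of all genes tested. Within both cohorts separately, TRAP lay wholly above lysate for 10 members and wholly below for 11, where this held for 17.8% and 12.2% of all genes tested. With the mouse as a block, 58 members were called, the 56 and 2 more, both scarce: Dnajc5b (adjusted p = 0.0460) and Hspb7 (adjusted p = 0.0140). Without the 2 run mice 51 were called.

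**Figure D2:**
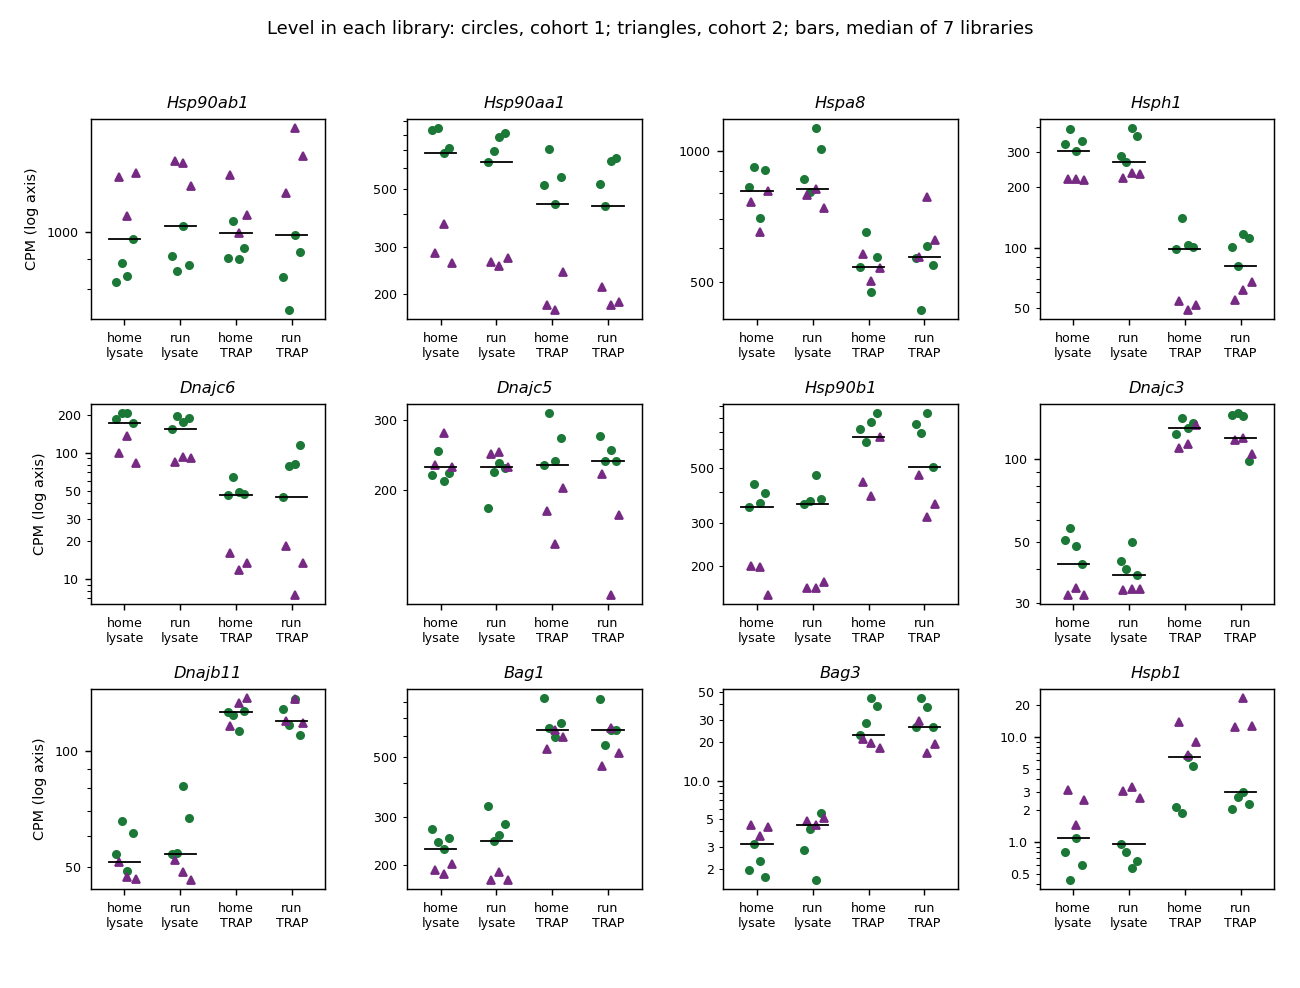
Level in CPM on a log axis in each of the 28 libraries for 12 members, by group. Bag3, Bag1, Dnajc3 and Dnajb11 stand higher in TRAP than in lysate, Hsph1 and Dnajc6 lower, Hsp90ab1 overlaps between all groups, and circles (cohort 1) and triangles (cohort 2) part in Hsp90aa1, Dnajc6 and Hspb1.

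Levels were also set against exon length, with all annotated exons of a gene merged. The most abundant members in TRAP were then Bag1 at 464 ± 76.0 CPM per kilobase (SD, n = 14), Hsp90ab1 at 348 ± 69.5 and Hsp90b1 at 149 ± 45.3. In lysate they were Hsp90ab1 at 347 ± 62.2, Hspa8 at 195 ± 29.1 and Bag1 at 170 ± 34.5. With the cohorts pooled, Hspa8 and Bag1 lie within each other's spread. The merged exons of Hspa8 hold 4301 bases and its longest transcript 3158, against 1349 and 1348 for Bag1. Ranks and gaps between members therefore depend on the length used. The order in TRAP differed between cohorts. Bag1 was above Hsp90ab1 in 8 of 8 TRAP libraries of cohort 1 (498 ± 75.3 and 303 ± 30.8 CPM per kilobase) and in 2 of 6 of cohort 2 (418 ± 51.6 and 407 ± 61.8), where they lie within each other's spread. In lysate Bag1 was below Hsp90ab1 in all 14 libraries. Against Hspa8, Bag1 was above in 3 of 8 lysate libraries of cohort 1 (195 ± 23.5 and 208 ± 30.8 CPM per kilobase for Bag1 and Hspa8). In cohort 2 it was above in 0 of 6 (137.5 ± 7.18 and 177.3 ± 14.5). At the other end 8 members were below 1 CPM in both fractions.

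Levels of many members differed between the cohorts, where the mice and the labelled batch cannot be told apart. In lysate the cohorts did not overlap for 51 of the 73 tested members, and in TRAP for 37, where they did not for 47.2% and 37.7% of all genes tested. Dnaja1 was at 461 to 652 CPM in the 8 lysate libraries of cohort 1 and 107 to 310 CPM in the 6 of cohort 2, Hspe1 at 219 to 318 against 36.6 to 87.3 CPM, and Hspb1 the other way, at 0.435 to 1.09 against 1.44 to 3.33 CPM. Across the 73 members, the log2 ratio of cohort 2 to cohort 1 and the GC content of the longest transcript had Spearman's rho of 0.70 in lysate and 0.64 in TRAP, with all members measured in the same libraries. No value over all genes is given for these levels, so the relation is not shown to be particular to the members. For the difference of the TRAP to lysate ratio between cohorts, described next, rho with GC content was -0.05 over members and -0.046 over 16078 genes.

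The TRAP to lysate ratio itself was then compared between cohorts. It differed for 15 of 73 members, where 20.2% of all genes tested did, with 8 higher in cohort 2 (8.39% of all genes) and 7 lower (11.9% of all genes). With DESeq2-type size factors in place of TMM the split was 11 higher and 5 lower. A change of direction with calls in both cohorts was seen in Dnajc5, the cysteine string protein of synaptic vesicles (chromosome 2, 181520485 to 181555133, plus strand). In cohort 1 it was at 232 to 314 CPM (median 245) in TRAP and 181 to 251 CPM (median 222) in lysate, and in cohort 2 at 109 to 220 CPM (median 176) in TRAP and 229 to 279 CPM (median 239) in lysate. TRAP was above the mouse's own lysate in 8 of 8 mice of cohort 1 and in 0 of 6 of cohort 2. The log2 ratio was 0.22 in cohort 1 (adjusted p = 0.0272) and -0.49 in cohort 2 (adjusted p = 0.00983), a difference of -0.71 ± 0.16 (adjusted p = 0.00216).

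Dnajc6 went the same way from further down. It was at 44.7 to 115 CPM in TRAP and 154 to 207 CPM in lysate in cohort 1, and at 7.42 to 18.3 CPM and 82.7 to 135 CPM in cohort 2, log2 ratios of -1.53 and -2.84. Hspa12a (-0.83 and -2.24), Hspa2 (-0.87 and -1.67), Dnajb4 (-0.94 and -1.49) and Dnajc18 also had lower ratios in cohort 2. Bag3 was higher in TRAP in both cohorts and less so in cohort 2, at 22.8 to 45.03 CPM in TRAP and 1.65 to 5.59 CPM in lysate in cohort 1 against 16.5 to 29.6 and 3.67 to 5.03 CPM (log2 ratios 3.57 and 2.24). In the other direction stood Dnajc15, at -1.35 in cohort 1 and -0.20 in cohort 2, a difference of 1.15 ± 0.20. Its lysate level was 259 to 516 CPM in cohort 1 and 55.9 to 74.6 CPM in cohort 2, and its TRAP level 109 to 179 and 44.9 to 71.1 CPM. Dnajc24 (0.67 and 1.43), Dnajc1 (1.02 and 1.67), Dnajc9 (-0.21 and 0.34), Hspb11, Dnajb6, Dnajc19 and Dnajb11 also had higher ratios in cohort 2.

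**Figure D3:**
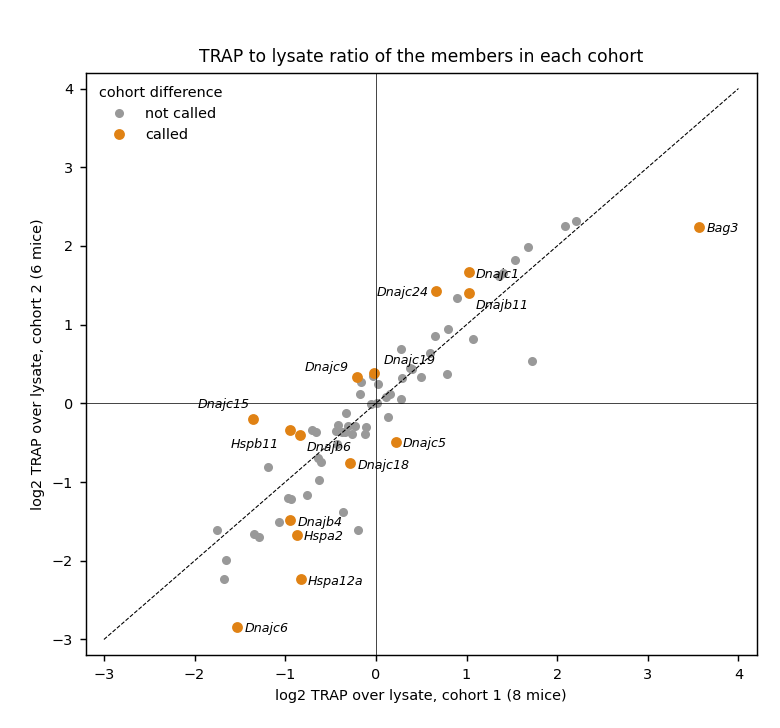
Log2 TRAP to lysate ratio of each member in cohort 1 (x axis) and cohort 2 (y axis), with equal ratios on the dashed line. The 15 members whose ratio differed between cohorts are named; Dnajc5 is the only one of them that was called in both cohorts with opposite signs.

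The ratios of cell type markers were compared between cohorts too. The 10 neuron markers summed to 4860 to 8545 CPM in TRAP of cohort 1 and 2032 to 2756 CPM in TRAP of cohort 2, and 9 of the 10 had a lower ratio in cohort 2 (median log2 ratio -1.11 and -1.78). In lysate the neuron sum was 13750 to 17170 CPM in cohort 1 and 8357 to 12230 CPM in cohort 2. The ratio was also lower in cohort 2 for 4 of 8 astrocyte and 2 of 8 oligodendrocyte markers, and higher for 4 of 14 microglia, 1 of 8 endothelial and 1 of 8 mural cell markers. Of all genes tested, 11.9% had a lower ratio in cohort 2 and 8.39% a higher one. The endothelial and mural cell counts rest on 1 gene each. The mean log2 level of microglia markers minus that of neuron markers in TRAP was 3.15 ± 0.50 (SD, n = 8) in cohort 1 and 3.99 ± 0.19 (n = 6) in cohort 2. Their part in the cohort differences was not tested. The count of 15 was 10 without the 2 run mice, 9 of them shared, and 16 with the mouse as a block, 13 of them shared. The block lost Dnajb11 (adjusted p = 0.0619) and Dnajc19 (0.0628) and added Hspa1b (0.0324), Hspa8 (0.0396) and Hsph1 (0.0417). Leaving out single libraries gave 11 to 17 calls, with 4 to 9 higher and 6 to 12 lower. The number higher was 5 or fewer without home cage TRAP Female1 or Female2 of cohort 2, home cage lysate Female2 of cohort 1 or Male1 of cohort 2, run TRAP Female2 or Male1 of cohort 2 or Male2 of cohort 1, or run lysate Female1 or Female2 of cohort 2 or Male2 of cohort 1. The number lower was 11 or 12 without home cage lysate Female2 of cohort 1 or without run TRAP Female2 or Male1 of cohort 2. Of 35 alternatives, Dnajb11 was not called in 22, Dnajb4 in 14 and Dnajb6 in 12, at adjusted p up to 0.236, 0.221 and 0.136.

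Exercise was set against the home cage in TRAP and in lysate separately, which asks whether chaperone mRNA levels in either fraction differed after 1 h of exercise. In TRAP 0 of 70 members tested were called, where 0.046% of all 15203 genes were, and 0 had an unadjusted p under 0.05 in edgeR, where 3.55% of all genes had. DESeq2 and limma-voom also called 0. In lysate 0 of 71 were called, where 0.0311% of all 16091 genes were, and 3 had an unadjusted p under 0.05 (4.23%, against 7.41% of all genes), again with 0 called by DESeq2 and limma-voom. The median log2 difference over members was -0.0029 in TRAP and 0.0076 in lysate, and over all genes tested 0.0010 and 0.0022.

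The 14 stress-inducible members stand for genes that a heat shock response is known to raise and include those whose promoters are shown above. Hsp90ab1 and Hspa8, named constitutive above, are also on this list and in its counts. The 14 are Bag3, Dnaja1, Dnajb1, Dnajb4, Hsp90aa1, Hsp90ab1, Hspa1a, Hspa1b, Hspa4l, Hspa8, Hspb1, Hspd1, Hspe1 and Hsph1. Their log2 differences ran from -0.07 to 0.28 in TRAP and from -0.35 to 0.45 in lysate. The 95% intervals stayed within a 2-fold change in either direction for 12 of 14 in TRAP and 14 of 14 in lysate, and within 1.5-fold for 11 of 14 in each. The lowest of these values, Dnaja1 in lysate, was -0.11 without home cage lysate Female2 of cohort 2. Hspa1a had 0.905, 2.15 and 6.19 CPM (lowest, median, highest) in home cage TRAP and 1.29, 3.35 and 4.00 CPM in run TRAP. In lysate it had 3.66, 5.08 and 6.93 CPM and 3.75, 5.66 and 7.18 CPM. The groups overlap in both fractions, and the log2 differences of 0.28 (interval -0.53 to 1.08) and 0.17 (-0.17 to 0.50) did not pass. A rise of Hspa1a in TRAP by more than 2.12-fold lies outside the interval, and smaller ones do not.

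The abundant members had narrower intervals. Of 50-base stretches, 52.7% of those of Hspa8 occur in 15 other genes and 44.8% of those of Hspd1 in 9, so these levels too depend on how such reads were counted. Hspa8 was at 475 to 653 CPM in home cage TRAP and 430 to 784 CPM in run TRAP, and Hsph1 at 48.8 to 141 and 54.5 to 117 CPM, log2 differences of 0.09 ± 0.11 and 0.04 ± 0.12. Hsp90ab1 was at 899 to 1250 and 737 to 1502 CPM (0.05 ± 0.11), and Hsp90aa1 was at 174 to 706 and 182 to 657 CPM with a 95% interval of -0.26 to 0.26 on the log2 scale. The conditions overlap for all 4. Bag3 was at 18.0, 22.8 and 44.7 CPM in home cage TRAP and 16.5, 26.2 and 45.03 CPM in run TRAP. In lysate Bag3 was at 1.75, 3.14 and 4.51 CPM and 1.65, 4.48 and 5.59 CPM, the widest lysate difference among the stress-inducible members (0.45 ± 0.23, adjusted p = 0.676).

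**Figure D4:**
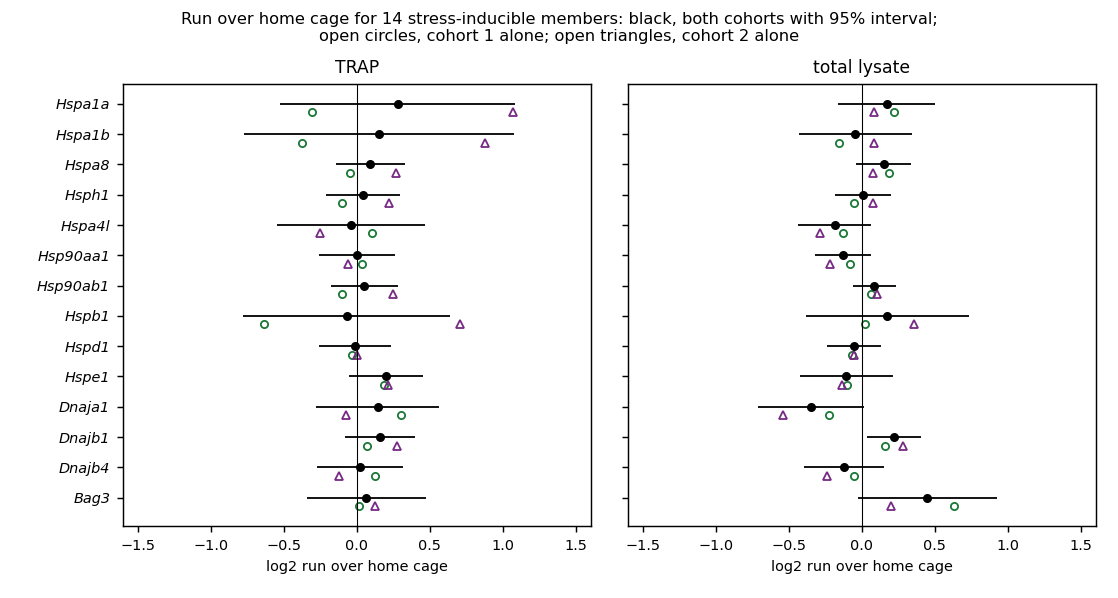
Log2 difference of run over home cage for the 14 stress-inducible members in TRAP (left) and lysate (right), with 95% intervals over both cohorts and the value in each cohort alone. All TRAP intervals include 0, the lysate interval of Dnajb1 lies just above it without passing the adjusted test, and the cohorts part most in Hspa1a, Hspa1b and Hspb1 in TRAP.

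The members with the smallest p were given as values, none being called. In TRAP they were Hspa2, at 6.43 to 24.4 CPM (median 14.4) in home cage and 11.3 to 27.3 CPM (median 14.3) in run (log2 difference 0.37 ± 0.19), and Hspb3, at 10.4 to 25.3 CPM (median 16.6) and 4.29 to 18.0 CPM (median 11.4) (-0.51 ± 0.25), both with an adjusted p of 0.999. In lysate the 3 with an unadjusted p under 0.05 were Dnajb1 at 99.1 to 141 CPM (median 108) in home cage and 115 to 151 CPM (median 125) in run (0.22 ± 0.09, adjusted p = 0.654), Dnajb5 (0.24 ± 0.11, adjusted p = 0.670) and Hspa13 (-0.39 ± 0.15, adjusted p = 0.646). The conditions overlap for all of them.

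Whether the run difference itself differed was tested between fractions and between cohorts. Between TRAP and lysate 0 of 73 members were called (0.0% of all genes), with 2 at an unadjusted p under 0.05 (2.74%, against 4.64% of all genes), Hspa13 at 0.64 ± 0.27 and Hspa2 at 0.49 ± 0.22. Between cohorts 0 of 70 were called in TRAP and 0 of 71 in lysate (0.0% of all genes in each), with 2 and 1 at an unadjusted p under 0.05 (2.86% and 1.41%, against 4.28% and 2.04%). DESeq2 and limma-voom called 0 in each of these tests. They were Hspb1 and Dnaja3 (-0.46 ± 0.21) in TRAP and Hspb3 (-0.77 ± 0.33) in lysate. In cohort 1 Hspb1 was at 1.89 to 6.38 CPM in home cage TRAP and 2.07 to 2.99 CPM in run TRAP, and in cohort 2 at 6.74 to 13.8 and 12.4 to 23.6 CPM, log2 differences of -0.64 and 0.71 (difference 1.36 ± 0.60, adjusted p = 0.914). Hspa1a (-0.31 and 1.07) and Hspa1b (-0.38 and 0.87) parted in the same sense, with adjusted p of 0.914 each. Of the 3 run mice of cohort 2, 2 are those with labels in doubt, and a fit without them keeps 1 run mouse of that cohort. The doubt comes from Y-linked genes, and sex was a term in no fit. The microglia minus neuron measure above was 3.62 ± 0.57 (SD, n = 7) in home cage TRAP and 3.39 ± 0.60 in run TRAP. Without the 2 mice Hspa1a in TRAP was at -0.23, Hspb1 at -0.35 and Bag3 at 0.18, and 0 members were called in either fraction.

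Further genes of the heat shock pathway numbered 34 (heat shock factors, Hsp90 co-chaperones, cytosolic chaperonin subunits and others). Of these, 12 were higher in TRAP, 14 lower and 8 not called, where 34.3% of all genes tested were higher and 41.3% lower. The median over the 34 was -0.13, against -0.20 over all genes tested. The largest ratios among the 34 were those of Fkbp5, a co-chaperone of steroid receptors (2.48 ± 0.14), and St13, a co-chaperone of Hsp70 (1.25 ± 0.08). Hscb, a mitochondrial J-domain protein, came next (1.12 ± 0.09). Among the smallest were those of the small heat shock protein Cryab (-1.08 ± 0.09) and the factor Hsf4 (-0.88 ± 0.25). Hsf1 was at 15.2 to 80.5 CPM in TRAP and 5.51 to 42.5 CPM in lysate, higher in TRAP in all 14 mice (1.07 ± 0.11). The ratio was higher in cohort 2 for 13 of the 34 and lower for 1, Cryab, where 8.39% of all genes tested were higher and 11.9% lower. Of the 13, 6 were subunits of the cytosolic chaperonin, such as Cct3 (difference 0.97 ± 0.12). In run against home cage 0 of 34 were called in either fraction, where 0.046% of all genes were in TRAP and 0.0311% in lysate. The nearest of the 34 was Fkbp5 in TRAP (1.02 ± 0.19, edgeR adjusted p = 0.067).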

How the data were processed

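The members and gene lists were chosen with earlier results of these data known. Poly(A) RNA of 28 libraries was sequenced after Nextera XT preparation, per the labels' protocols. The authors deposited 1 table of raw read counts per gene; the submitters' processing notes name STAR 2.7.7a, featureCounts, DESeq2 and GRCm38. The sources used here do not state strand, multiple-mapping settings or annotation, and reads shared by copies or overlapping genes are therefore uncertain. Counts were filtered (filterByExpr), scaled with TMM and tested in edgeR 4.0.16 (quasi-likelihood, Benjamini-Hochberg adjusted p under 0.05, R 4.3.3) over all genes, with cohort as a term. TRAP against lysate used all 28 libraries, and run against home cage used 14 per fraction. CPM were scaled over all 28 libraries. Alternatives were DESeq2 1.42.0, limma-voom 3.58.1, DESeq2-type size factors, other filters, single cohorts, no cohort term and a block. In fits of all 28 libraries the block was the mouse. In run comparisons within a fraction it was the replicate name, which pairs a home cage mouse with a different run mouse. Each library was also left out in turn, and so were the 2 run mice of cohort 2 that go against their labels. Genes named singly are the stress-inducible members, the largest and smallest ratio of each class and the strongest differences by p; others named were chosen after their values were seen. The fits were tested on simulated data. No replicate pair agreed within sampling noise.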

Additional observations from a re-analysis of the deposited data

Results flagged for a closer look

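The TRAP to lysate ratio differed between cohorts, by an interaction term in edgeR, for 12 of the members followed singly. Cohort 2 minus cohort 1 on the log2 scale, it was lower for Hspa12a at -1.41 (adjusted p = 0.000182), Bag3 at -1.33, Dnajc6 at -1.30, Hspa2 at -0.80, Dnajc5 at -0.71 and Dnajb4 at -0.55. It was higher for Dnajc15 at 1.15 (adjusted p = 0.000147), Dnajc24 at 0.77, Dnajc1 at 0.64, Dnajc9 at 0.54, Dnajb6 at 0.43 and Dnajb11 at 0.38. Of 35 alternatives, Dnajb11 was not called in 22, Dnajb4 in 14 and Dnajb6 in 12, including without the 2 run mice of cohort 2 (adjusted p 0.221, 0.221 and 0.103).

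In 3 of 148 groups of 7 libraries looked at, 1 library stood apart from the others, and chance marks about 1 in 20 such groups. Dnajc5 was at 181 CPM in run lysate Female1 of cohort 1, against 222.8 to 249.5 CPM in the other 6. The same library had Hspa12a at 81.9 CPM, against 102 to 114 CPM in the others. Hspb7 was at 0.416 CPM in run TRAP Female2 of cohort 2, 1 of the mice with labels in doubt, and at 0 to 0.0443 CPM in the other 6.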

How the results depend on the processing

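The count of members called for TRAP over lysate was 56, and 49 to 58 under every alternative but 1: without a cohort term it was 39 (17 higher and 22 lower), and Dnaja1, Hsp90aa1, Hspa13 and Hspa1b were among the 17 lost. Leaving out single libraries gave 55 to 57. Hspa14 was lost in DESeq2, with DESeq2-type size factors and with both other filters, and Hspb7 was gained without home cage TRAP Male2 of cohort 1 (adjusted p = 0.00696) or run TRAP Female2 of cohort 2 (0.0127). For the cohort difference of the ratio, 15 were called and 10 to 19 under the alternatives, split as 12 higher and 7 lower in DESeq2, 4 and 14 with a stricter filter, and 4 and 6 without the 2 run mice. The cause of these shifts was not tested. The run comparisons and the tests of their differences gave 0 under every alternative run. Within a fraction, the block there was the replicate name and not the mouse.

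TRAP and lysate libraries of a mouse are paired by their names. With that replicate block 58 members were called for TRAP over lysate and 16 for the cohort difference. Same-mouse deviations correlated between -0.0583 and 0.111. Depth limits the scarce members: 8 were below 1 CPM in both fractions.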
